A study of Mus musculus with 31 samples.

Results

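The AP-1 and immediate early transcription factors were followed in mouse pancreatic cancer cells as a set of 10 genes: Fos, Fosb, Fosl1, Fosl2, Jun, Junb, Jund, Egr1, Ier2 and Atf3. They were found by symbol in 3 RNA-seq count tables that list 55487, 56980 and 56941 genes. Each symbol had 1 row in every table, and all 10 passed the filter on low counts in each, in the first experiment Fosb only through its 3D libraries. The cells were Panc02, a murine pancreatic adenocarcinoma line, by the study's methods, although in 1 of the 3 experiments (overexpression) the labels give each library a cell line name with another number. The 31 libraries came from 3 experiments, each with its own table and its own scaling, and their total counts ran from 41542533 to 78498230.

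The first experiment compared WT cells grown as flat cultures (2D) and as spheroids in Matrigel (3D) with cells in which Cxcl5, a neutrophil-attracting chemokine, was targeted by CRISPR (Cxcl5-/-), with 3 libraries in each of 4 groups. The second, here called the overexpression experiment, held spheroids of WT cells (2 libraries), Cxcl5-/- cells (2 libraries), Cxcl5-/- cells with a retroviral stabilised Hif1a (3 libraries) and Cxcl5-/- cells with retroviral Myc (3 libraries). Hif1a encodes the hypoxia-induced transcription factor subunit, and Myc a growth-promoting transcription factor. In the third experiment WT spheroids received control medium (Ctrl), medium from unstimulated macrophages (M0-CM) or medium from macrophages activated with interferon-gamma and lipopolysaccharide (M1-CM), with 3 libraries each. The knockout rests on a single guide RNA with puromycin selection, and the sources used here do not say whether a clone or a pool was studied. The study describes its experiments in general as biological replicates, but the labels do not tie the sequenced libraries to separate cultures, so that p-values measure the spread between libraries, which may be technical.

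AP-1 is a dimer of a Fos family and a Jun family protein, or of Jun proteins with each other or with ATF proteins, that binds short palindromic sites in promoters and enhancers. Immediate early genes are transcribed within minutes of a growth factor, stress or mechanical signal without need for new protein synthesis, and their mRNAs are short-lived. In pancreatic cancer cells, signalling from mutant Ras through the ERK kinase is a known inducer of the Fos family and Egr1, and Jun and Atf3 are known responders to cell stress.

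Promoter sequences are shown for the 5 members with the strongest differences between 2D and 3D WT cells among the 7 members for which RefSeq windows were at hand (Fos, Fosb, Fosl2, Jun, Junb, Jund and Atf3). Each line gives the 250 bases upstream of the RefSeq start (assembly GRCm38.p6), read 5′ to 3′ on the strand of the gene. Capitals mark TGACG or its reverse complement CGTCA, the shared part of the cAMP response element, and in Jun the letters TGACNTCA.
Fos (chr12:85473640-85473889, plus strand): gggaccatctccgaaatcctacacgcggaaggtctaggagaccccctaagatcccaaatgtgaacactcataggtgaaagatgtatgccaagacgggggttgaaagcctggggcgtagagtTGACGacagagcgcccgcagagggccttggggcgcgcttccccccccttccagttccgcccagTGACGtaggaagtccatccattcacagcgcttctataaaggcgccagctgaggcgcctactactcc
Fosb (chr7:19310046-19310295, minus strand): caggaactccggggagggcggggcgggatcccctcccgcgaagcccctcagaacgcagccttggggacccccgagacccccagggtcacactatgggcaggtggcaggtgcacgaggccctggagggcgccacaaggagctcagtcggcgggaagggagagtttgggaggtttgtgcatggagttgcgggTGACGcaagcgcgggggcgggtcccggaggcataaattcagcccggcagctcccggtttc
Jun (chr4:95052223-95052472, minus strand): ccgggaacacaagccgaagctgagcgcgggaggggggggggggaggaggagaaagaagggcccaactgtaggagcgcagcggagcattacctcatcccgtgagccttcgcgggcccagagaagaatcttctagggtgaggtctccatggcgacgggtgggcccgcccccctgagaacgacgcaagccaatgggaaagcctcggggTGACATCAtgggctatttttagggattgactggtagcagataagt
Junb (chr8:84978749-84978998, minus strand): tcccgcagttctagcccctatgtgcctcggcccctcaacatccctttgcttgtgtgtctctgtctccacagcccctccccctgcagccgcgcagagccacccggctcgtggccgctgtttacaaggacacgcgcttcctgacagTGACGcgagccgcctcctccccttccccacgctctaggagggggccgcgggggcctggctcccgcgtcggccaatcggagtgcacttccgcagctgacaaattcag
Atf3 (chr1:191183334-191183583, minus strand): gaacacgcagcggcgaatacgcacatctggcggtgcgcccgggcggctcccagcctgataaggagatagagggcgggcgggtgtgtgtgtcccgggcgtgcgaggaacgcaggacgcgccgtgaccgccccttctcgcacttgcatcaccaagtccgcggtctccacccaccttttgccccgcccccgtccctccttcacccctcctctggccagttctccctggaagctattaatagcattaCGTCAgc
TGACG stood in the windows of Fos, Fosb, Junb and Atf3, against 17.8% of all 32851 promoter windows of the same length. In Fos it lay 129 and 66 bases before the start, in Fosb 60, in Junb 106 and in Atf3 7, where the RefSeq start lies inside the gene as GENCODE annotates it. TGACNTCA stood in the window of Jun, 45 bases before the start, and in 7.49% of all windows. Both motifs were added after these sequences had been seen, and TGACNTCA contains TGACG where its N is a G. TGANTCA, the core AP-1 site, was in none of the 7 member windows and in 6.75% of all windows. The full cAMP response element TGACGTCA and the CArG box, the site of serum response factor, were in no member window either, against 1.55% and 1.47% of all windows. CACGTG, the site bound by Myc, was in none (6.02% of all windows), and ACGTG, the core of the hypoxia response element and contained in CACGTG, was in that of Jund alone (16.6% of all windows). The Jund window (chr8:70697489-70697738) follows a RefSeq start upstream of the GENCODE gene, so it does not reach the start annotated there. Both strands were searched for each motif. Sites beyond these 250 bases were not searched, and Fosl1, Egr1 and Ier2 had no window. A motif missing here may therefore still lie elsewhere near a member.

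On GRCm38, in the GENCODE annotation, the protein-coding members lie at chr12:85473890-85477273 (Fos), chr7:19302696-19310051 (Fosb), chr19:5447547-5455946 (Fosl1), chr5:32135801-32157842 (Fosl2), chr4:95049034-95052222 (Jun), chr8:84974484-84978718 (Junb), chr8:70698949-70700616 (Jund), chr18:34859823-34864984 (Egr1), chr8:84661331-84662852 (Ier2) and chr1:191170296-191218039 (Atf3). Genes annotated on the other strand overlap Fosl1 (Ccdc85b), Jun (Junos), Junb (Prdx2), Jund (Gm11175) and Atf3 (Gm24748). The kit keeps strand, but whether strand was used in counting is not given in the sources used here, so reads of these pairs cannot be told apart.

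Levels are given as CPM, that is counts relative to the TMM-scaled library size, and differences as log2 fold changes with SE from edgeR, fitted over all genes of a table. A gene was called at a Benjamini-Hochberg adjusted p under 0.05 over all genes tested. The targeted gene was looked at first. Cxcl5 averaged 47.3 ± 1.78 CPM among 2D WT libraries and 34.3 ± 2.70 among 2D Cxcl5-/- libraries (SD, n = 3; log2 difference -0.47 ± 0.14 SE, adjusted p = 0.0705), and 27.0 ± 2.17 among 3D WT against 50.6 ± 13.1 in the 3D libraries labelled Cxcl5-/- (log2 difference 0.91 ± 0.14 SE, adjusted p = 0.000173). The Cxcl5 RNA count thus went against the label in 3D, and these libraries are named by their label below. The study reports checking the knockout by immunoblot for CXCL5 protein, which an RNA count does not measure. In the overexpression experiment Cxcl5 was lower in Cxcl5-/- than in WT spheroids (38.4 against 66.0 CPM; log2 difference -0.78 ± 0.14 SE, adjusted p = 0.00107). Myc averaged 490.2 ± 81.6 CPM (SD, n = 3) with retroviral Myc against 21.1 ± 1.59 (n = 2) in Cxcl5-/- spheroids, whereas Hif1a was at 139 ± 7.40 CPM in Cxcl5-/- spheroids, at 266 ± 27.2 with retroviral Hif1a and at 258 ± 15.5 with retroviral Myc, so its count was higher with either transgene (log2 differences 0.94 and 0.90) and did not set these 2 apart. The epithelial keratins Krt8 and Krt18 were detected in all groups, while the defining epithelial genes Epcam and Cdh1 were at or near 0 CPM in every group.

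Among WT cells, 8 of the 10 members were higher in 3D than in 2D and none was lower. Genome-wide, 22.2% of the 21367 genes tested were called higher, 22% lower and 44.3% in either direction. The median log2 fold change was 1.77 over the 10 members and 0.00 over all genes tested. Fosb passed the low-count filter only through the 3D libraries, as 1 of 6 2D libraries exceeded the cutoff of 0.162 CPM, so it was tested only because it was higher in 3D. Without it, 7 of 9 members were higher with a median of 1.71. Among these, Fos and Atf3 rose most, by 21.2- and 18.7-fold. For spheroids the study describes dissolving the Matrigel, washing and enzyme treatment, with no such step for 2D cells. It does not say how cells were harvested for RNA. Any difference in harvest cannot be told apart from culture here, and its part was not tested.

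Fos, the prototype partner of Jun in AP-1, was at 0.539, 0.388 and 0.431 CPM in the 2D WT libraries and at 9.96, 8.67 and 10.1 CPM in the 3D WT libraries. Every 3D library was above every 2D library by more than the spread of either group, and Fos rose 21.2-fold (log2 difference 4.41 ± 0.24 SE, adjusted p = 7.44e-09). For 26.8% of all genes tested, every 3D WT library was above every 2D WT library. Fosb, a paralogue of Fos, was at 0.0963, 0.187 and 0.0695 CPM in 2D and at 3.86, 2.34 and 1.31 CPM in 3D, a rise of 20.8-fold (log2 difference 4.38 ± 0.47 SE, adjusted p = 4.45e-06). Its 2D values rest on 5 to 13 counts a library, and its 3D libraries were the most scattered of the members. Fosl1, which encodes Fra-1, rose 3.55-fold from 3.95 ± 0.831 to 14.1 ± 4.15 CPM (SD, n = 3; log2 difference 1.83 ± 0.23 SE, adjusted p = 2e-05). Fosl2, which encodes Fra-2, rose 1.88-fold from 144 ± 8.2 to 272 ± 10.1 CPM (log2 difference 0.91 ± 0.09 SE, adjusted p = 2.32e-06).

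Jun was at 32.0, 24.9 and 29.8 CPM in 2D WT and at 118, 94.6 and 97.0 CPM in 3D WT, with no overlap, and rose 3.57-fold (log2 difference 1.84 ± 0.12 SE, adjusted p = 4.44e-08). Junb was at 68.4, 61.5 and 68.7 CPM in 2D and at 247, 188 and 214 CPM in 3D (log2 difference 1.71 ± 0.12 SE, adjusted p = 7.81e-08). The groups were again apart, with 3D WT above 2D WT, as for 26.8% of all genes tested. Jun and Junb rose by similar factors. Jund, the constitutively expressed Jun protein, did not pass the test: its values were 94.9 ± 14.3 CPM in 2D and 112 ± 21.3 CPM in 3D, and they overlapped (log2 difference 0.24 ± 0.17 SE, adjusted p = 0.273).

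Atf3, a stress-induced repressor and activator that pairs with Jun, was at 1.54, 1.74 and 1.84 CPM in 2D WT and at 31.4, 32.3 and 32.3 CPM in 3D WT. Its replicates lay close together on both sides of an 18.7-fold rise (log2 difference 4.22 ± 0.22 SE, adjusted p = 6.45e-09). Ier2, a short-lived nuclear protein of the immediate early response, rose 1.38-fold from 7.55 ± 1.10 to 10.4 ± 0.133 CPM (log2 difference 0.47 ± 0.17 SE, adjusted p = 0.0392), and this call was lost under 8 of 12 alternative settings, including scaling to library totals (adjusted p = 0.24) and the removal of any 3D WT library or of replicate 1 or 2 of 2D WT. Egr1, a zinc finger factor and classical target of ERK signalling, gave 8.15 ± 3.17 CPM in 2D and 8.99 ± 0.616 in 3D, with overlap and no call (log2 difference 0.14 ± 0.25 SE, adjusted p = 0.683).

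**Figure D1:**
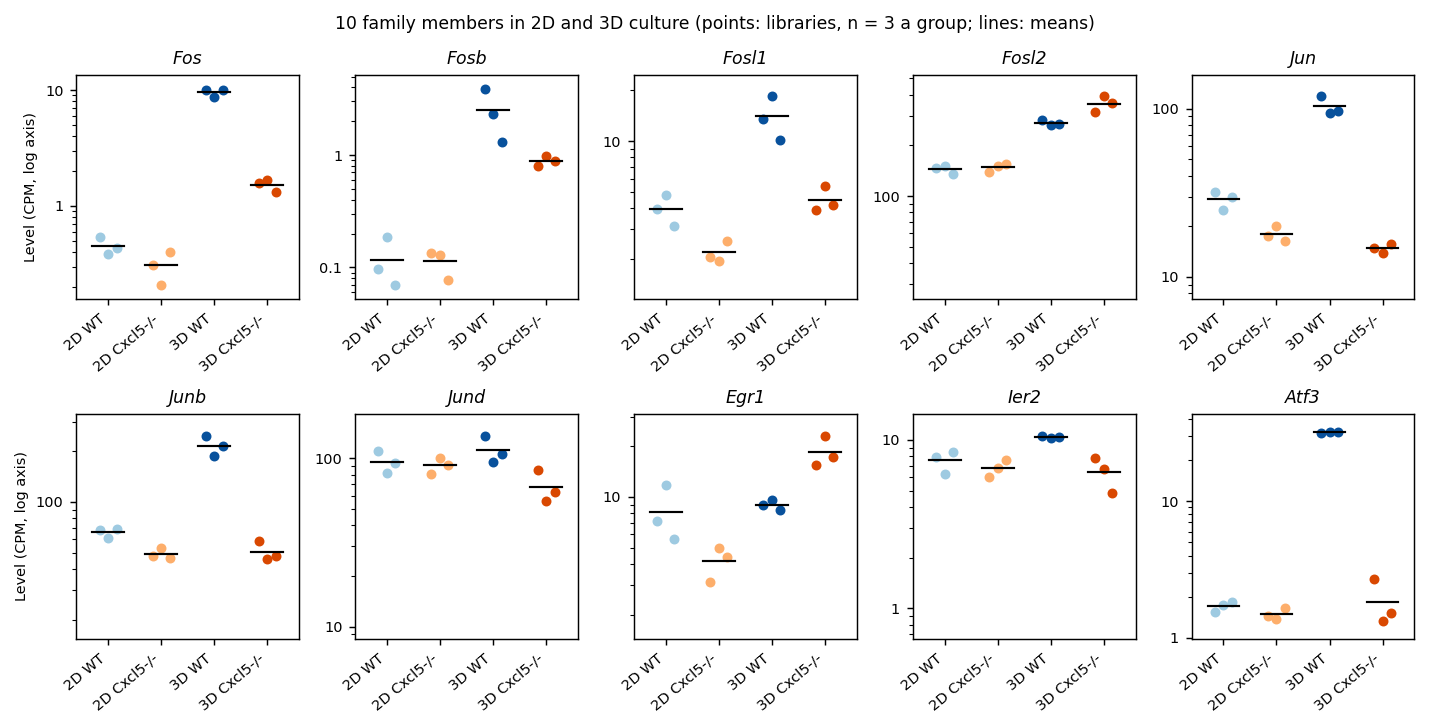
Level of each of the 10 members (CPM, log axis) in 2D WT, 2D Cxcl5-/-, 3D WT and 3D libraries labelled Cxcl5-/- (points: 3 libraries a group, horizontal lines: means). Fos and Atf3 stand apart in 3D WT (means 9.57 and 32.0 CPM), whereas Egr1 is highest in the 3D libraries labelled Cxcl5-/- (18.6 CPM).

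In the same libraries, markers of cell types and the number of genes with any count differed between the 2D and 3D groups. The fibroblast markers Pdgfra, Col1a1, Dcn and Lum together gave 23.3 to 25.3 CPM in the 2D WT libraries against 71.3 to 73.97 in 3D WT, with 3 of 4 called higher. The epithelial markers, of which 5 of 7 were tested, gave 546 to 593 against 853 to 1097 CPM, with 4 higher and 1 lower. The 7 macrophage markers gave 28.0 to 32.4 against 42.2 to 46.5 CPM, but the defining ones among them, Ptprc, Adgre1, Csf1r and Itgam, summed to at most 0.144 CPM with 2D WT and 0.812 with 3D WT. Of 6239 protein-coding genes with at most 3 counts in each 2D library, 35.6% to 44.9% had a count in the 3D WT libraries and 17.6% to 21.4% in the 3D libraries labelled Cxcl5-/-. In the 2D libraries the share was 2.13% to 3.13%, kept low by the way these genes were picked. In the WT spheroids of the third experiment (conditioned media), also grown in 3D, it was 2.98% to 11.3%, so the share differed between experiments. The part of the markers and of these genes in the members' values was not tested. By the study's methods only cells of the cancer line were seeded, with no fibroblasts or macrophages added. In such bulk libraries, fewer cells expressing a marker and less RNA per cell cannot be told apart.

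Between 2D Cxcl5-/- cells and the 3D libraries labelled Cxcl5-/-, Fos, Fosl1, Fosl2 and Egr1 were higher in 3D and Jun, Junb and Atf3 were not called. Of the 10, 5 were higher in 3D (background 28.7% of genes), 1 was lower (background 28.2%) and 4 were not called, with 57% of all genes called in either direction. The median log2 fold change was 0.67 over the members, 0.30 over the 9 without Fosb (4 higher, 1 lower) and 0.11 over all genes. Fos, Fosl1 and Fosl2 were higher (log2 fold changes 2.30 ± 0.24 SE, 1.03 ± 0.23 SE, and 1.26 ± 0.09 SE). Fosb was also called higher (2.96 ± 0.46 SE). However, 0 of 3 2D Cxcl5-/- libraries exceeded the filter cutoff for Fosb, so it was tested only through its 3D libraries. Egr1 was 4.46-fold higher, from 3.11, 4.97 and 4.42 CPM in 2D to 15.5, 23.1 and 17.2 CPM in 3D (log2 difference 2.16 ± 0.25 SE, adjusted p = 7.65e-06). Jun, Junb, Ier2 and Atf3 were not called, with log2 fold changes of -0.28 (SE 0.12), 0.03 (SE 0.12), -0.08 (SE 0.17) and 0.30 (SE 0.22). Jund was lower (log2 difference -0.42 ± 0.17 SE, adjusted p = 0.0482), but its groups overlapped and the call was lost under 8 of 12 alternative settings, among them the removal of replicate 2 or 3 of either group (adjusted p up to 0.198). In the same comparison the fibroblast markers summed to 9.31 to 10.98 CPM in 2D and 203 to 234 in 3D (4 of 4 higher), the epithelial markers to 449.6 to 484 and 217 to 236 CPM (3 of 5 tested lower, 2 higher), and their part in the members' values was not tested.

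In 2D, Jun, Junb, Fosl1 and Egr1 were lower in Cxcl5-/- cells. None was higher in Cxcl5-/- cells and 4 were lower, against 3.17% of all genes called lower and 7.03% called in either direction. Jun was at 17.5, 20.1 and 16.4 CPM in Cxcl5-/- cells, below every WT library (log2 difference -0.68 ± 0.12 SE, adjusted p = 0.00218), and this call held in every refit but not with a log2 fold change above 1 also required. For 13.1% of all genes tested, every 2D Cxcl5-/- library was below every 2D WT library. Fosl1 (log2 difference -0.86 ± 0.23 SE, adjusted p = 0.042), Junb (-0.42 ± 0.12 SE, adjusted p = 0.0422) and Egr1 (-0.97 ± 0.25 SE, adjusted p = 0.0318) each lost the call without certain libraries: Junb without any one of the 6 (adjusted p up to 0.205), Fosl1 without any but replicate 3 of 2D WT (up to 0.169), and Egr1 without replicate 1 or 2 of 2D WT or replicate 1 or 3 of Cxcl5-/- (up to 0.159). In each of these fits 1 to 3 members were called. Fos, Fosb, Fosl2, Jund, Ier2 and Atf3 had log2 fold changes between -0.54 and 0.04 and were not called. The fibroblast markers summed to 9.31 to 10.98 CPM in Cxcl5-/- and 23.3 to 25.3 in WT cells (2 of 4 lower), the epithelial markers to 449.6 to 484 and 546 to 593 CPM (2 of 5 tested lower, 1 higher), and the macrophage markers to 48.7 to 49.3 and 28.0 to 32.4 CPM (2 of 5 tested higher). Their part in these differences was not tested.

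In 3D, all 10 members differed between the libraries labelled Cxcl5-/- and WT: 8 were lower (background 25.3% of genes) and 2 higher (background 19.7%), with 45% of all genes called in either direction. The median log2 fold change was -1.57 over the members and -0.04 over all genes. In all 10 the 3 libraries of one group lay beyond the 3 of the other, which was so for 54.4% of all genes tested. As stated above, the Cxcl5 RNA count in these libraries went against their label, while the study checked the knockout by protein.

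Atf3 was furthest apart, at 2.68, 1.32 and 1.51 CPM in the libraries labelled Cxcl5-/-, 17.4-fold below the WT level near 32 CPM (log2 difference -4.12 ± 0.22 SE, adjusted p = 1.14e-08). The replicates labelled Cxcl5-/- were thus near the 2D level. Jun was at 14.9, 13.9 and 15.7 CPM, 6.95-fold below WT (log2 difference -2.80 ± 0.12 SE, adjusted p = 2.83e-09), and Junb at 58.3, 46.0 and 47.5 CPM, 4.28-fold below WT (log2 difference -2.10 ± 0.12 SE, adjusted p = 1.99e-08). Fos was at 1.58, 1.66 and 1.33 CPM, 6.28-fold below WT but above its 2D levels (log2 difference -2.65 ± 0.21 SE, adjusted p = 3.64e-07). The other members that were lower were Fosb (log2 difference -1.48 ± 0.39 SE), Fosl1 (-1.65 ± 0.23 SE), Jund (-0.72 ± 0.17 SE) and Ier2 (-0.69 ± 0.17 SE). With scaling to library totals, Jund (adjusted p = 0.063) and Ier2 (adjusted p = 0.139) lost the call, and Fosb lost it without replicate 1 of 3D WT (adjusted p = 0.052).

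Fosl2 and Egr1 went the other way. Egr1 was 2.07-fold higher in the 3D libraries labelled Cxcl5-/-, with 8.96, 9.62 and 8.39 CPM in WT (log2 difference 1.05 ± 0.25 SE, adjusted p = 0.00336). Fosl2 was 1.31-fold higher, at 317, 390 and 356 CPM against 283, 264 and 267 CPM (log2 difference 0.38 ± 0.09 SE, adjusted p = 0.00338).

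Whether the genotype difference itself changed with culture was tested by the interaction of genotype and culture. It was called for 5 members (27.2% of all genes), 1 positive (background 11.1%) and 4 negative (background 16.1%), that is with a more negative genotype difference in 3D: Atf3 (interaction log2 -3.92 ± 0.30 SE, adjusted p = 1.69e-06), Jun (-2.11 ± 0.17 SE, adjusted p = 2.02e-06), Junb (-1.67 ± 0.16 SE, adjusted p = 1.13e-05) and Fos (-2.11 ± 0.33 SE, adjusted p = 0.000409). For Egr1 it was positive (2.02 ± 0.35 SE, adjusted p = 0.000936), from a lower level of Egr1 in 2D Cxcl5-/- to a higher one in 3D. Fosb, Fosl1, Fosl2, Jund and Ier2 gave no call, with adjusted p from 0.0556 to 0.134. Without replicate 1 of the 3D libraries labelled Cxcl5-/-, 8 members were called, the others being Fosl2, Jund and Ier2. Leaving out replicate 3 of 3D WT added Fosb and Fosl1, replicate 2 of 2D WT Fosl1, and replicate 1 of 2D WT or 2 of 3D WT Jund. The Fosl2 interaction (0.34 ± 0.13 SE) was called with library totals (0.72, adjusted p = 0.00945), with no filter (adjusted p = 0.0396) and by DESeq2 (adjusted p = 0.0238), and that of Jund by DESeq2 (adjusted p = 0.0237).

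In the same comparison, the fibroblast markers summed to 203 to 234 CPM in the 3D libraries labelled Cxcl5-/- against 71.3 to 73.97 for 3D WT, although 1 of 4 was called higher and 2 lower. The epithelial markers summed to 217 to 236 against 853 to 1097 CPM, with 3 of 5 tested lower and 1 higher, and the 7 macrophage markers to 43.3 to 63.2 against 42.2 to 46.5 CPM. The defining macrophage genes summed to at most 0.812 CPM in either group. The part of these differences in the members' values was not tested.

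Spheroids of both genotypes were sequenced again in the overexpression experiment, with other libraries (n = 2 a group), and 41.9% of 28730 genes tested were called there. Of the 10 members 7 were called, 4 lower (background 24.3%) and 3 higher (background 17.6%). The median log2 fold change was 0.03 over the members and -0.30 over all genes. Atf3 was at 43.6 and 43.0 CPM in WT and at 3.36 and 2.66 in Cxcl5-/- spheroids, 14.4-fold lower (log2 difference -3.85 ± 0.18 SE, adjusted p = 1.26e-07). Egr1 was at 11.8 and 8.54 CPM in WT and at 63.5 and 70.01 in Cxcl5-/- spheroids, 6.55-fold higher (log2 difference 2.71 ± 0.19 SE, adjusted p = 1.17e-06). These were again the members with the largest differences in each direction.

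Fosl1 was 4.68-fold lower (log2 difference -2.23 ± 0.23 SE), and Jun (-0.61 ± 0.12 SE) and Junb (-0.67 ± 0.16 SE) were lower, against values of -2.80 and -2.10 in the first set of spheroids. Junb was not called without replicate 1 of Cxcl5-/- (adjusted p = 0.0696). Fosl2 was 1.83-fold higher (log2 difference 0.87 ± 0.09 SE, adjusted p = 2.6e-05). Fosl1, Fosl2, Jun, Junb, Egr1 and Atf3 were therefore called in the same direction in both sets, whose libraries are separate. The share of all genes called alike in both sets was not computed, so this agreement cannot be read as particular to the members. In either direction, 45% of all genes were called in the first set and 41.9% in this one. Ier2 went opposite ways: it was at 6.07 and 6.74 CPM in WT and 15.9 and 16.3 in Cxcl5-/- spheroids, 2.52-fold higher (log2 difference 1.33 ± 0.27 SE, adjusted p = 0.00247), but lower in the first set (-0.69 ± 0.17 SE). For Fos the log2 difference was 0.74 ± 0.32 SE (adjusted p = 0.0775), against -2.65 in the first set, and it passed the threshold when only WT and Cxcl5-/- entered the fit (adjusted p = 0.0247) or with library totals (adjusted p = 0.0484). Fosb (0.39 ± 0.43 SE) and Jund (-0.33 ± 0.17 SE) were not called. The tables were scaled apart and the difference between the sets was not tested.

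**Figure D2:**
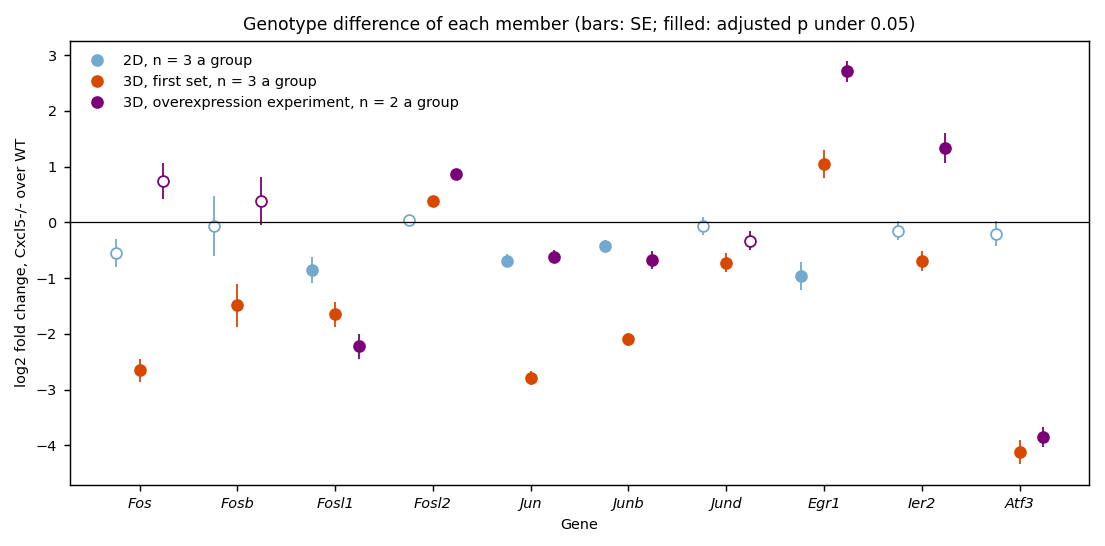
Log2 fold change of each member, Cxcl5-/- over WT, in 2D (blue), in the first set of 3D libraries (orange) and in 3D in the overexpression experiment (purple). Bars are SE and filled points have an adjusted p under 0.05. Atf3 is lowest in both 3D sets (-4.12 and -3.85), while for Ier2 (-0.69 and 1.33) and Fos (-2.65 and 0.74) the 3D sets lie on opposite sides of 0, as for Fosb (-1.48 and 0.39).

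The 2 WT libraries of the overexpression experiment stood apart in the number of genes with any count: 85.1% of the 6239 genes described above had a count, against 16.6% to 19.8% in the Cxcl5-/- libraries. The median density of those genes in WT, 0.0871 and 0.0868 CPM per kb of exon, corresponds to 0.544 and 0.542 CPM for a gene of the length of Fosb, or 15.2% and 16.5% of its level there, and to 4.91% and 5.84% of that of Fos. Fosb and Fos were the members with the lowest levels in those libraries. The macrophage genes Ptprc, Adgre1, Csf1r and Itgam summed to 3.00 CPM in both WT libraries and to at most 0.519 in Cxcl5-/- libraries. The fibroblast markers summed to 19.7 to 23.4 CPM in WT and 269 in Cxcl5-/- libraries (4 of 4 called higher), and the epithelial markers to 856 to 903 and 287 to 302 CPM (3 of 6 tested lower). The part of these values in the genotype difference was not tested. Nor was their part in the all-gene medians and shares given for comparisons with these WT libraries.

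With retroviral Hif1a and with retroviral Myc, 8 of the 10 members each were called against Cxcl5-/- spheroids (background 35.5% of genes for Hif1a and 39.6% for Myc). In each case 4 were higher and 4 lower, against 20.5% and 15% of all genes for Hif1a and 21.6% and 18% for Myc. The median log2 fold change was -0.04 and 0.08 over the members, and 0.16 and 0.11 over all genes. Both comparisons use the same 2 Cxcl5-/- libraries. Fibroblast markers summed to 25.9 to 44.4 CPM with Hif1a and 147 to 170 with Myc, and epithelial markers to 705 to 837 and 267 to 312 CPM. The 7 macrophage markers summed to 44.9 to 63.2 CPM with Hif1a and 59.7 to 76.7 with Myc, against 34.5 to 34.7 in Cxcl5-/- libraries, although Ptprc, Adgre1, Csf1r and Itgam summed to at most 1.10 CPM in any of these. Of the 6239 genes described above, 35.9% to 44.3% had a count with Hif1a and 30.9% to 41.3% with Myc, against 16.6% to 19.8%. The part of these values in the members' differences was not tested.

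Fos was at 5.40 and 7.43 CPM in Cxcl5-/- spheroids, at 5.10, 7.74 and 6.07 CPM with Hif1a and at 30.6, 18.3 and 15.4 CPM with Myc. Each Myc library was above all others, a difference of 1.74 ± 0.30 SE on the log2 scale (adjusted p = 0.00061), while with Hif1a it was -0.02 ± 0.28. Fosb went with Fos, at 2.84 and 6.13 CPM in Cxcl5-/-, 4.51, 4.19 and 4.26 with Hif1a, and 30.5, 12.9 and 13.4 with Myc (log2 difference 2.08 ± 0.40 SE, adjusted p = 0.00153 for Myc, and -0.05 ± 0.38 SE for Hif1a). Replicate 1 with Myc was the highest library for both genes. Between Myc and Hif1a spheroids, Fos differed by 1.76 (SE 0.25, adjusted p = 0.000535) and Fosb by 2.13 (SE 0.35, adjusted p = 0.00117) on the log2 scale, and 19.3% of all genes were called in that comparison, 9.54% higher and 9.73% lower with Myc.

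Jund and Atf3 were higher with Hif1a than with Myc. Jund was at 41.0 and 56.0 CPM in Cxcl5-/- spheroids, 111, 106 and 97.5 with Hif1a and 46.6, 34.7 and 32.9 with Myc. It rose 2.16-fold with Hif1a (log2 difference 1.11 ± 0.16 SE, adjusted p = 0.000249), was not called with Myc (-0.35 ± 0.16 SE, adjusted p = 0.101), and differed between Myc and Hif1a by -1.46 (SE 0.14, adjusted p = 3.12e-05). Atf3 was at 10.3, 11.4 and 13.9 CPM with Hif1a and at 4.95, 5.87 and 4.88 with Myc, both above the 2 Cxcl5-/- libraries (log2 fold changes 1.98 ± 0.17 SE, and 0.80 ± 0.16 SE). The difference between Myc and Hif1a was -1.19 (SE 0.14, adjusted p = 0.000115), and both stayed below WT spheroids, by -1.86 (SE 0.15) with Hif1a and -3.05 (SE 0.15) with Myc. With scaling to library totals, the rise of Atf3 with Myc was no longer called (adjusted p = 0.0731), and Jund was lower with Myc than in Cxcl5-/- spheroids (adjusted p = 0.00263). Jund was also called lower without replicate 1 of either of these groups (adjusted p = 0.0385 without that of Cxcl5-/- and 0.0127 without that of Myc).

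Egr1, which stood highest in Cxcl5-/- spheroids, was 4.14-fold lower with Hif1a (13.8, 16.02 and 18.5 CPM) and 4.18-fold lower with Myc (18.3, 14.7 and 15.0 CPM). The log2 fold changes were -2.05 (SE 0.16, adjusted p = 2.85e-06) and -2.06 (SE 0.16, adjusted p = 1.88e-06), and Egr1 was above WT with each (0.66 ± 0.17 SE, and 0.65 ± 0.17 SE), calls that were lost without replicate 2 of WT (adjusted p = 0.148 and 0.133) and with library totals (0.0683 and 0.141). Ier2 was also lower with each (-0.70 ± 0.24 SE, adjusted p = 0.0385, and -0.79 ± 0.24 SE, adjusted p = 0.0203), though the first call was lost without any one of the 5 libraries compared and the second without any but replicate 1 with Myc (adjusted p up to 0.159 and 0.0974). Fosl2 was lower by 0.45 with Hif1a (log2 difference -0.45 ± 0.08 SE) and further with Myc (-1.13 ± 0.08 SE), and the difference between Myc and Hif1a was called (-0.69 ± 0.07 SE, adjusted p = 7.17e-05).

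Jun and Junb, close together in the first experiment, parted here. Jun was at 42.8 and 51.1 CPM in Cxcl5-/- spheroids, 21.3, 24.7 and 22.2 with Hif1a, and 19.8, 24.03 and 20.8 with Myc, and it fell with each (log2 fold changes -1.04 ± 0.11 SE, adjusted p = 2.55e-05, and -1.12 ± 0.11 SE, adjusted p = 1.15e-05). Junb was at 51.8 and 61.9 CPM in Cxcl5-/- spheroids, 104, 139 and 117 with Hif1a, and 117, 89.2 and 92.0 with Myc, and it rose with each (1.08 ± 0.15 SE, adjusted p = 0.000181, and 0.80 ± 0.15 SE, adjusted p = 0.00111). For these genes the libraries did not overlap between Cxcl5-/- and either transgene. The same held for 56.7% of all genes tested with Hif1a and 58.5% with Myc. Fosl1 rose with Hif1a (0.66 ± 0.21 SE, adjusted p = 0.0271) and was not called with Myc (0.52 ± 0.21 SE, adjusted p = 0.0684). The Hif1a call of Fosl1 was lost in 5 of 11 alternatives, including those without replicate 2 of Cxcl5-/- or replicate 2 or 3 with Hif1a (adjusted p up to 0.203), and the Myc value was called without replicate 1 with Myc (adjusted p = 0.0247).

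Against WT spheroids, 6 members were called with Hif1a, 3 higher (background 13.9%) and 3 lower (background 10.3%), with 24.2% of all genes in either direction. With Myc 8 were called, 3 higher (background 17.1%) and 5 lower (background 14.7%), with 31.8% of all genes in either direction. Fosl1, Jun and Atf3 were below WT in both. Jun was further below WT with each transgene (log2 fold changes -1.66 ± 0.11 SE, and -1.74 ± 0.11 SE) than without one (-0.61 ± 0.12 SE). Fos and Fosb were above WT with Myc (2.48 ± 0.31 SE, and 2.47 ± 0.41 SE).

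**Figure D3:**
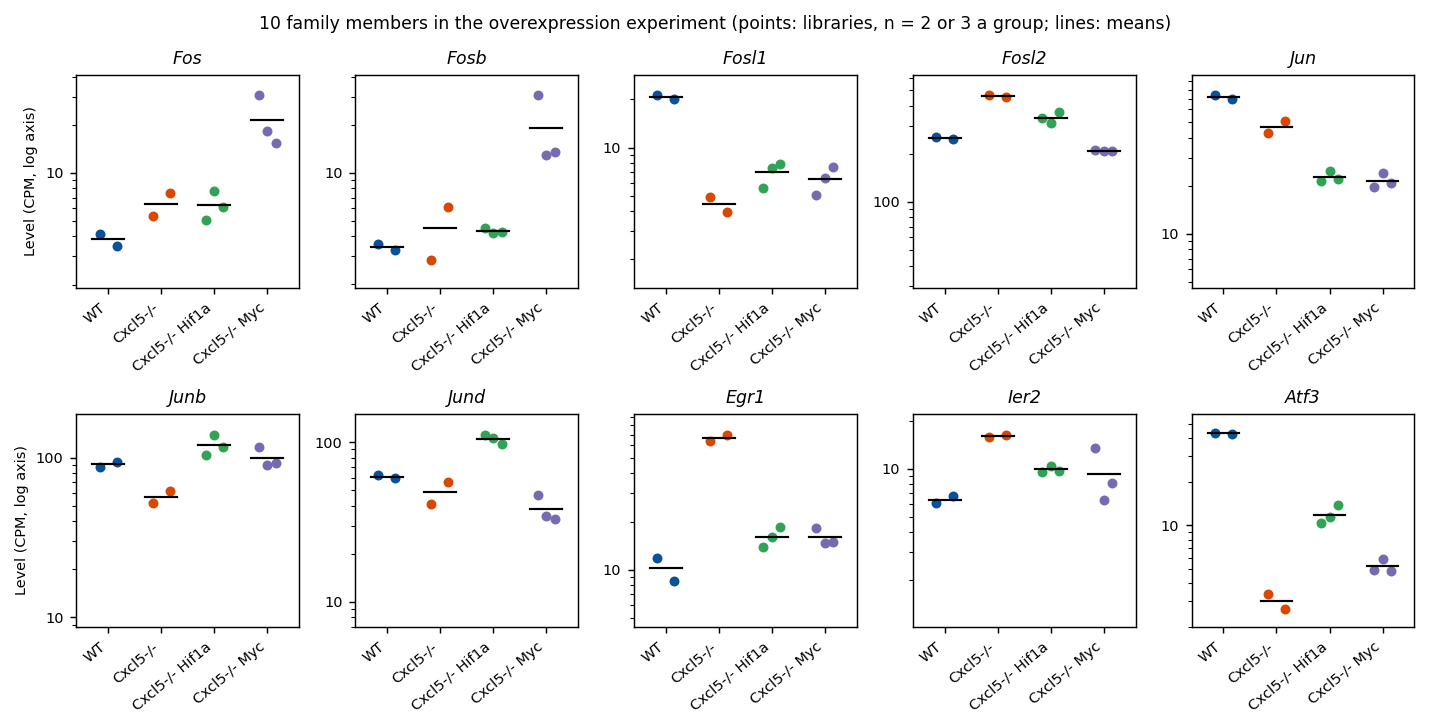
Level of each member (CPM, log axis) in spheroids of WT, Cxcl5-/-, Cxcl5-/- with retroviral Hif1a and Cxcl5-/- with retroviral Myc cells (points: 2, 2, 3 and 3 libraries, lines: means). Fos and Fosb are highest with Myc (means 21.4 and 19.0 CPM), Jund is highest with Hif1a (105 CPM), and Atf3 is highest in WT (43.3 CPM).

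In WT spheroids given conditioned media, none of the 10 members was called in any of 3 comparisons with edgeR, and none by DESeq2. Genome-wide 0.0156% of 19207 genes tested were called for M1-CM against Ctrl, 0.0156% for M1-CM against M0-CM and 0% for M0-CM against Ctrl. At an unadjusted p under 0.05, 1 member (Fosb) passed for M1-CM against Ctrl and 0 in the other comparisons, while 903, 498 and 569 of all genes did so in the 3 comparisons. DESeq2 called 97, 32 and 17 genes in all. The members' log2 fold changes ran from -1.70 to 0.75 for M1-CM against Ctrl, with SE up to 1.01. Cxcl5 was among the genes called, at 682 ± 32.4 CPM with M1-CM and 100.9 ± 20.4 with Ctrl (SD, n = 3).

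The scatter between libraries was wide in this experiment. Atf3 was at 8.60, 0.254 and 12.4 CPM in Ctrl, at 6.27, 4.12 and 12.8 with M0-CM, and at 0.864, 2.06 and 3.60 with M1-CM. All M1-CM libraries were below all M0-CM libraries, but replicate 2 of Ctrl was lower still (log2 fold change against M0-CM -1.83 ± 1.01 SE, adjusted p = 0.989). The same Ctrl library was also lowest in its group for Jun (21.9 CPM against 61.4 and 65.2), Fosl1 (2.38 against 6.55 and 5.93) and Fosl2 (119 against 330 and 222), and highest for Fos (5.33 against 2.66 and 3.65) and Fosb (6.43 against 1.501 and 4.61). Egr1 was at 5.14, 25.9 and 10.03 CPM with M1-CM, a wider range than in Ctrl (14.2, 8.98 and 12.2). Leaving out any single library gave no called member. The defining macrophage genes summed to at most 0.288 CPM in any library of this experiment.

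**Figure D4:**
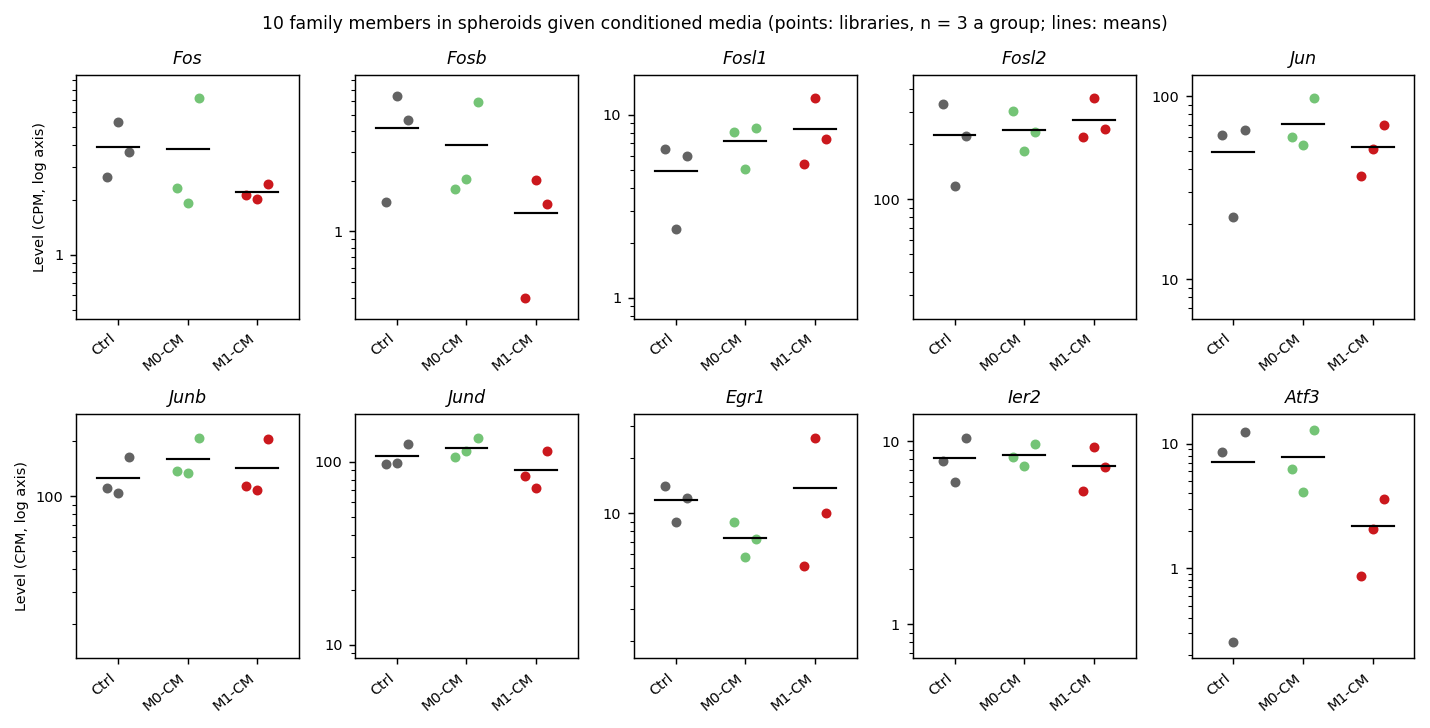
Level of each member (CPM, log axis) in WT spheroids given Ctrl, M0-CM or M1-CM (points: 3 libraries a group, lines: means). The groups overlap for most members, and Atf3 spans 0.254 to 12.8 CPM.

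Per kilobase of exon, which allows levels of different genes to be set side by side, the Jun family was the more abundant. In 2D WT, Jund came first at 56.9 ± 8.56 CPM per kb (SD, n = 3), then Junb (28.8 ± 1.78), Fosl2 (14.9 ± 0.847), Jun (9.07 ± 1.15) and Ier2 (4.96 ± 0.724), with Fos at 0.193 and Fosb at 0.0188. In 3D WT, Junb was first (94.1 ± 12.8), followed by Jund (67.2 ± 12.8), Jun (32.4 ± 4.04), Fosl2 (28.1 ± 1.04) and Atf3 (14.9 ± 0.230). Fosl1 (6.91 ± 2.04) and Ier2 (6.86 ± 0.0876) did not differ beyond their spread there. In the 3D libraries labelled Cxcl5-/-, Jund (40.7 ± 9.06) and Fosl2 (36.6 ± 3.80) led without differing beyond their spread. In Cxcl5-/- spheroids of the overexpression experiment, Fosl2 was first at 47.4 ± 0.898 (n = 2). Summed over families, Fos family levels were close in 3D WT and in the libraries labelled Cxcl5-/- (39.4 and 39.6 CPM per kb): Fosl2 was higher (28.1 and 36.6) while Fos (4.07 and 0.648), Fosb (0.401 and 0.143) and Fosl1 (6.91 and 2.20) were lower, whereas the Jun family summed to 193.7 and 67.3.

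Across the 12 libraries of the first experiment, members fell into more than one pattern of levels. Jun and Junb had a Pearson r of 0.98, Junb and Atf3 0.97, Fos and Fosl1 0.93, and Fosl2 and Egr1 0.83, while Jun and Egr1 had -0.07 and Jund and Egr1 -0.49 (log2 CPM, n = 12). These values describe libraries that share 4 groups and have no test. Among 14442 other genes with a mean of at least 50 counts, those most like Fos were Thsd4 (r = 0.99) and 4930447F24Rik (0.99), 1 of those most like Junb was Emp2 (0.99), and those most like Atf3 were Cyp51 and Msmo1 (0.99 each), which encode enzymes of cholesterol synthesis. Egr1 was most like Zfp469 (0.98) and Usp54 (0.97), Jun most like Gapdh (0.99), and Jund most like Dok4 and Snhg9 (0.93 each).

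Other immediate early genes were read against the shares of all genes called. This list and those below were chosen with earlier results of these data known. Any excess over the shares of all genes is therefore not independent of these data. Of 29 tested, 19 were higher and 2 lower in 3D than in 2D WT cells (all genes 22.2% and 22%), with a median log2 fold change of 0.88 against 0.00 over all genes. Ier3, an anti-apoptotic early response gene, rose from 19.2 ± 4.15 to 255 ± 31.4 CPM (log2 difference 3.73 ± 0.18 SE), and Klf2, a Krüppel-like factor, by 2.47 on the log2 scale (SE 0.27). Ccn2, a matricellular protein gene, was lower (-1.503 ± 0.08 SE), as was the kinase gene Plk3 (-1.15 ± 0.11 SE). Among libraries labelled Cxcl5-/-, 10 of the 29 were higher and 11 lower in 3D (all genes 28.7% and 28.2%), with a median of 0.11 against 0.11 over all genes. Between the 3D groups 18 were lower and 2 higher in the libraries labelled Cxcl5-/- (all genes 25.3% and 19.7%, median -0.97 against -0.04). The lower genes included Nr4a1, an orphan nuclear receptor gene (log2 difference -2.97 ± 0.23 SE), and Ier3 (-2.90 ± 0.17 SE). The 2 higher genes were Ccn2 (3.35 ± 0.09 SE) and Phlda1 (1.44 ± 0.18 SE). In the overexpression experiment 12 of 29 were lower and 8 higher in Cxcl5-/- spheroids (all genes 24.3% and 17.6%, median -0.28 against -0.30), again with Ier3 lower (-3.56 ± 0.13 SE) and Ccn2 higher (4.11 ± 0.21 SE). No gene of this list was called with conditioned media.

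**Figure D5:**
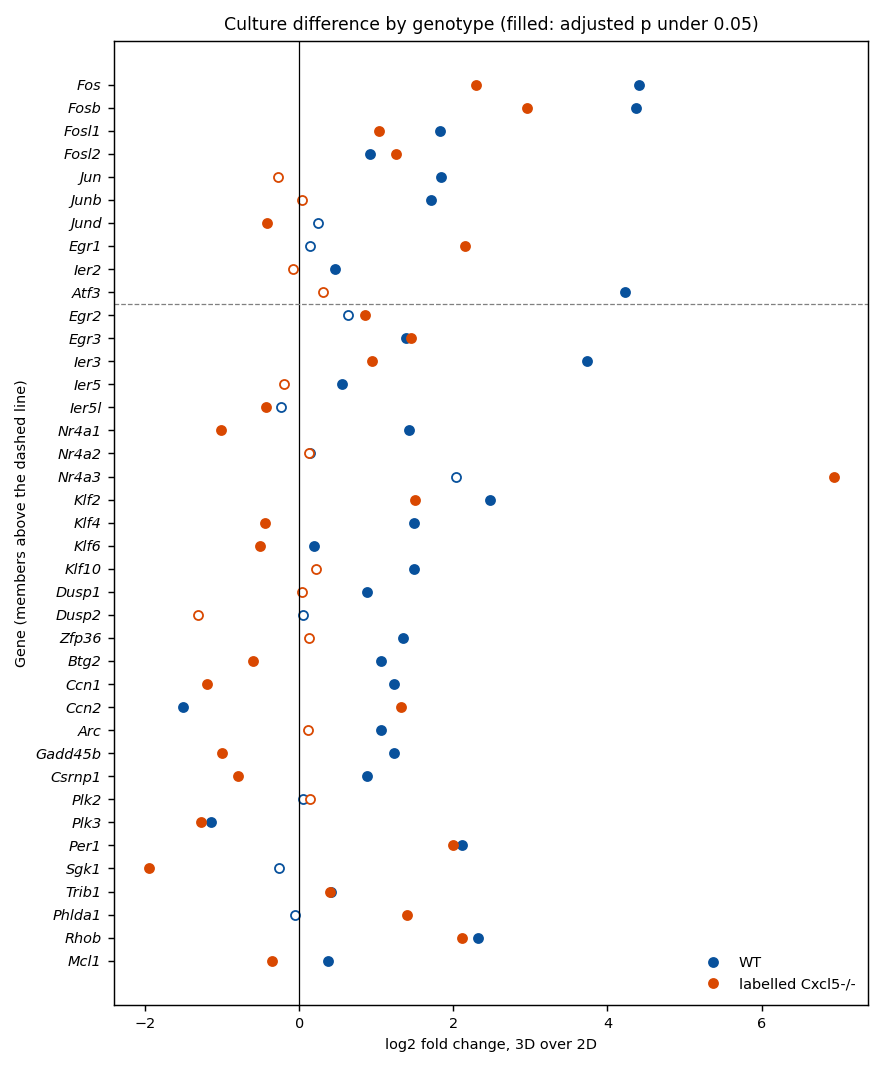
Log2 fold change of 3D over 2D culture in WT (blue) and in cells labelled Cxcl5-/- (orange), for the 10 members (above the dashed line) and 29 other immediate early genes (below it). Filled points have an adjusted p under 0.05. Jun, Junb and Atf3 lie near 0 in cells labelled Cxcl5-/- (-0.28, 0.03 and 0.30) and at 1.84, 1.71 and 4.22 in WT.

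Genes of the ERK feedback loop, which are induced by ERK signalling and mostly restrain it, were lower in the 3D libraries labelled Cxcl5-/- in 7 of 10 tested and higher in none (all genes 25.3% and 19.7%, median log2 fold change -1.18 against -0.04). Spry2 (log2 difference -2.20 ± 0.18 SE) and Etv4 (-2.07 ± 0.23 SE) were the lowest. Of 11 tested in the overexpression experiment, 5 were lower and 3 higher in Cxcl5-/- spheroids (all genes 24.3% and 17.6%, median -0.83 against -0.30), with Etv4 at -3.63 (SE 0.27) and Dusp5 at -3.12 (SE 0.17). Egr1, itself an ERK target, was higher in both comparisons (1.05 and 2.71). Among 6 genes of serum response factor and its cofactors, which act at the CArG box, 4 were higher and 1 lower in the 3D libraries labelled Cxcl5-/- (all genes 19.7% and 25.3%, median 0.41 against -0.04), led by Elk4 (0.90 ± 0.15 SE) and Mrtfa (0.70 ± 0.18 SE).

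Of 9 tested genes for further partners of AP-1, 2 were lower and 2 higher in that comparison (all genes 25.3% and 19.7%, median 0.04 against -0.04). Maf (log2 difference -3.49 ± 0.23 SE) and Maff (-2.41 ± 0.13 SE), which encode Maf proteins able to pair with AP-1 subunits, were the lower ones. In 14 tested genes known as AP-1 targets, 8 were higher and 1 lower in 3D than in 2D WT (median 0.80), and 10 were lower and 2 higher in the 3D libraries labelled Cxcl5-/- than in 3D WT (median -1.26), where all genes gave 22.2% and 22% in the first comparison and 25.3% and 19.7% in the second. Hbegf, an EGF receptor ligand gene, was lower there (-2.58 ± 0.09 SE), and Plau, the urokinase gene, was higher (1.69 ± 0.08 SE). Of 16 tested in the overexpression experiment, 13 were lower and 1 higher in Cxcl5-/- spheroids (all genes 24.3% and 17.6%), 11 were higher and 1 lower with Hif1a (20.5% and 15%), and 5 were higher and 2 lower with Myc (21.6% and 18%). The medians were -1.93, 0.83 and 0.02, against -0.30, 0.16 and 0.11 over all genes.

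Heat shock genes, which report on protein folding stress, went both ways in WT cells: 3 of 8 were higher and 5 lower in 3D than in 2D WT (all genes 22.2% and 22%, median -0.66 against 0.00). Hspa1a (1.02 ± 0.25 SE) and Hspa1b (0.96 ± 0.21 SE), which encode the inducible Hsp70, were higher, and Hspd1 (-1.38 ± 0.09 SE) and Hspe1 (-1.09 ± 0.16 SE), which encode mitochondrial chaperones, were lower. In the libraries labelled Cxcl5-/- 6 of 8 were lower than in 3D WT and none was higher (all genes 25.3% and 19.7%, median -0.60 against -0.04), with Hspa1b at -1.49 (SE 0.22). With Hif1a, 8 of 9 were higher than in Cxcl5-/- spheroids (all genes 20.5%), and with Myc 5 were higher and 1 lower (all genes 21.6% and 18%).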

How the data were processed

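RNA was sequenced as stranded total-RNA libraries with paired reads, aligned by the authors with HISAT2 to GRCm38 (mm10 in the labels) and assembled with StringTie. The deposited tables hold whole-number gene counts, and the annotation release behind them is not given in the sources used here. Samples were grouped by their titles. Each table was fitted apart with edgeR 4.0.16 in R 4.3.3: the low-count filter by group, TMM scaling, all groups of the table in 1 quasi-likelihood fit, and Benjamini-Hochberg adjustment over all genes tested, with a threshold of 0.05. SE is the absolute log2 fold change over the root of the F statistic. CPM uses TMM-scaled library sizes, and levels per kb use the union of GENCODE exons. No replicate pair agreed within sampling noise (chi-square per degree of freedom at least 9.37). Totals ran from 41542533 to 78498230 counts a library. Alternatives were DESeq2 1.42.0 (Wald test), other scalings, no filter, fewer groups, a replicate block, each library left out, and a fold limit. DESeq2 is the tool the authors used. The named genes are all 10 members, up to 2 higher and 2 lower genes of each list by largest called change with a mean of at least 50 counts, and the 2 genes most like each member. Members and lists were chosen with earlier results of these data known. Some genes that this rule selects are not reported here.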

Additional observations from a re-analysis of the deposited data

Results flagged for a closer look

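The genotype difference in the first experiment differed between 3D and 2D by the interaction test for 5 members, on the log2 scale by -3.92 for Atf3, -2.11 for Jun, -2.11 for Fos, -1.67 for Junb and 2.02 for Egr1 (edgeR, adjusted p from 1.69e-06 to 0.000936, n = 3 a group). It was called for 27.2% of all genes, 11.1% positive and 16.1% negative. For Atf3, Jun and Fos each 3D library labelled Cxcl5-/- was below each 3D WT library, while Egr1 was above in 3 of 3. These 3D groups did not overlap for any of the 10 members, nor for 54.4% of all genes tested. The RNA count of Cxcl5, which does not measure its protein, went against the label of those 3D libraries.

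In 2 members the genotype difference between spheroids had opposite directions in the 2 sets of libraries, with every Cxcl5-/- library above every WT library in the overexpression experiment and below in the first. The log2 fold changes in the overexpression experiment were 1.33 (SE 0.27) for Ier2 and 0.74 (SE 0.32) for Fos, against -0.69 and -2.65 in the first. In the overexpression experiment, with 2 libraries a group, 80.9% of all genes had groups that did not overlap. Fosb also had opposite signs (-1.48 in the first set and 0.39 in the overexpression experiment), but its libraries overlapped in the latter. This difference was not tested, since the tables were scaled apart, and Fos did not pass the threshold in the overexpression experiment (adjusted p = 0.0775). No test for single outlying libraries was run, since each group held 2 or 3.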

How the results depend on the processing

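Of 75 called member values, 58 kept their call and direction in every refit, that is under every alternative except the fold limit, and 48 also had an absolute log2 fold change above 1. Of 65 values without a call, 52 never gained one. Over 1669 recomputed member values, 69 lost and 24 gained a call, and no value that was called under either setting changed sign. A further 52 changed sign with no call under either setting. The number of members called moved by over 1.5 times in these cases. In 2D, Cxcl5-/- against WT (4 members) gave 2 with scaling to library totals, 0 with a log2 fold change above 1 also required, and 1 to 3 with single libraries left out. The fold limit also gave 4 in place of 7 for Cxcl5-/- against WT in the overexpression experiment, 5 in place of 8 for each of Hif1a and Myc against Cxcl5-/-, 3 in place of 6 for Hif1a against WT and 5 in place of 8 for Myc against WT. These losses follow from the limit. The interaction (5 members) gave 5 to 8 with single libraries left out, with 8 without replicate 1 of the 3D libraries labelled Cxcl5-/-. The causes of the other changes were not tested.

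Scaling to library totals moved the all-gene median of log2 fold changes from -0.04 to 0.35 and the share of higher among called genes from 43.9% to 75.8% for 3D Cxcl5-/- against 3D WT, and from 0.00 to -0.21 and from 50.2% to 34.7% for 3D against 2D WT. For the interaction that share went from 40.9% to 77.1%. In the overexpression experiment it went from 57.8% to 43.6% (Hif1a against Cxcl5-/-), from 54.6% to 36.3% (Myc against Cxcl5-/-), from 57.5% to 38.1% (Hif1a against WT, 40.5% with DESeq2 size factors), from 53.7% to 28.5% (Myc against WT, 42.2% with DESeq2 size factors) and from 49.5% to 36.1% (Myc against Hif1a). No called member changed direction under these scalings.

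DESeq2 called 97, 32 and 17 genes for M1-CM against Ctrl, M1-CM against M0-CM and M0-CM against Ctrl where edgeR called 3, 3 and 0, and no member among them. Same-numbered libraries deviated together by a mean r of 0.0369 (conditioned media), 0.0247 (first experiment) and 0.00408 (overexpression). With conditioned media, same-numbered pairs ran from -0.236 to 0.359 and differently numbered ones from -0.286 to 0.288. With 2 or 3 libraries a group, these values cannot decide whether the numbers mark pairs. With the replicate number as a block, Ier2 in 3D against 2D WT lost its call (adjusted p = 0.0509), Jund gained one in the interaction (adjusted p = 0.0258), and the other member calls kept their side of the threshold.

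Groups of 2 or 3 libraries limit the precision, and levels below 1 CPM, as for Fos and Fosb in 2D, rest on 5 to 31 counts a library.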
